A study of Homo sapiens with 179 samples.

Results

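Forkhead transcription factors share a winged-helix DNA-binding domain, the forkhead box, and carry the gene symbol FOX followed by a subfamily letter and a number. The family was taken as every gene whose symbol has that form with a subfamily letter from A to S, which gave 49 of the 19084 genes in the deposited tables. The rule used only the symbols, but it was set with earlier results of these data known. They were followed in every TruSeq and LM-Seq library of RNA from H1. This established line of human embryonic stem cells had been cultured in E8, a defined medium, on Matrigel.

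Members of the family have very different jobs. FOXH1 brings the NODAL signal to DNA as the partner of SMAD2 and SMAD3, FOXO proteins are kept out of the nucleus by AKT phosphorylation when insulin or growth factors are present, and FOXM1 drives the genes of G2 phase and mitosis. Other members are regulators of single lineages, such as FOXA2 in endoderm and FOXP3 in regulatory T cells, and are normally little expressed in pluripotent cells. In mouse embryos Foxd3 is needed to maintain the pluripotent epiblast, and FOXO1 has been described as a factor that human embryonic stem cells need to stay pluripotent.

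The libraries formed 6 groups. LM-Seq, a strand-specific method that selects polyadenylated RNA with oligo-dT beads and primes reverse transcription with random hexamers, was used for Lane 1 (95 libraries), Lane 2 (48), Lane 3 (24) and Lane 4 (6), and the number of libraries in a lane set the depth. The commercial TruSeq RNA kit was used for the groups H1p43 and H1p16, with 3 libraries each and 12 samples per lane. The labels explain neither the letter p nor how libraries that shared a lane differ. All groups share the cell line and the medium, and no label tells whether the libraries of a group are separate cultures. Each p-value below therefore reflects the spread between libraries, which may be technical. Lane 1 libraries held 1040667 to 1539268 expected counts, Lane 2 libraries 2005728 to 2739067, Lane 3 libraries 4028604 to 4918554 and Lane 4 libraries 15780048 to 16583038. H1p43 libraries held 29018110 to 35852620 and H1p16 libraries 23680509 to 30628671.

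The label of the cells was checked with marker genes. All 11 pluripotency markers had a mean of at least 1 TPM (transcript abundance scaled by transcript length and library size) in each of the 6 groups, and POU5F1 averaged 2101 TPM in Lane 4, 3070.5 TPM in H1p43 and 3191 TPM in H1p16. NANOG averaged 156.4, 125.1 and 137.1 TPM in these groups, and SOX2 165.3, 255.6 and 288.9 TPM. The endoderm factor SOX17 was at 0 TPM in the means of Lane 4, H1p43 and H1p16. TEKT1, a protein of motile cilia, was at 0 TPM in the means of all 6 groups. CCDC39, from the same list of 6 ciliated cell markers, averaged 3.845, 2.66 and 1.36 TPM in Lane 4, H1p43 and H1p16. Not all lists of other cell types were near 0. In Lane 1 the median sum was 227.4 TPM for neuroectoderm, 147.1 TPM for fibroblast or stroma and 89.5 TPM for primitive streak and mesoderm. A few genes carried each sum: in Lane 1 a mean of at least 1 TPM was reached by 2 of 8, 3 of 8 and 2 of 8 genes of these lists. The summed level of 9 endoderm markers stayed between 0 and 10.3 TPM over the Lane 1 libraries and between 5.92 and 6.32 TPM in H1p43, against 3.54 to 3.77 TPM in H1p16.

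The CpG content of forkhead promoters covered a wide range, and 3 windows that span it are shown, with that of FOXO4 for a sequence motif. RefSeq promoter windows, which run from 250 bases before to 50 bases after the transcription start on GRCh38.p14, were matched by symbol for 37 of the 49 genes. FOXK2, expressed in every group, has the window chr17:82519482-82519781 on the plus strand with 55 CpG dinucleotides. FOXC1, a mesodermal and neural crest factor at or under 0.147 TPM in every group, has chr6:1609665-1609964 on the plus strand with 40. FOXR2, with 0 counts in every library, has chrX:55623150-55623449 on the plus strand with 1. In these 3 sequences, written 5′ to 3′, capitals mark each CpG. The window of FOXO4, chrX:71095601-71095900 on the plus strand, is shown because it holds a forkhead recognition heptamer, marked in capitals, at base 274 of the window.
FOXK2: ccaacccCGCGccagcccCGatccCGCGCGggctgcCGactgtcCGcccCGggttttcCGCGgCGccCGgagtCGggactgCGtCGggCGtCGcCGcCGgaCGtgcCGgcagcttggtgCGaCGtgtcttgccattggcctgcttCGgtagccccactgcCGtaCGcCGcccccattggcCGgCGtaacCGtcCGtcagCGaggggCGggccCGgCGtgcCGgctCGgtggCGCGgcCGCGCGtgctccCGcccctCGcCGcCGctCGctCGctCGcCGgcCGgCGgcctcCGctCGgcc
FOXC1: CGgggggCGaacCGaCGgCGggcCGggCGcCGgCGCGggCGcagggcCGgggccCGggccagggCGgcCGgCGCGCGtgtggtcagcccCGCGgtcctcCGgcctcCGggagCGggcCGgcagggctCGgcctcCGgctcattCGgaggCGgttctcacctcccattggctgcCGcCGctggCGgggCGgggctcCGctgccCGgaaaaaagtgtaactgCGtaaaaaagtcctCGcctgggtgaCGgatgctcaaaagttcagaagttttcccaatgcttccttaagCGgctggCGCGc
FOXR2: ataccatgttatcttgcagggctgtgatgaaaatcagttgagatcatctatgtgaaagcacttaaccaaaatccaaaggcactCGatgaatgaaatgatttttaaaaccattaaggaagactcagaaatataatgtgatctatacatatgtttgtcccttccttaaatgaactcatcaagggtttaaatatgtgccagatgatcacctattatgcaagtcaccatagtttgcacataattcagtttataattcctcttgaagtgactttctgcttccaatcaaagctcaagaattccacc
FOXO4: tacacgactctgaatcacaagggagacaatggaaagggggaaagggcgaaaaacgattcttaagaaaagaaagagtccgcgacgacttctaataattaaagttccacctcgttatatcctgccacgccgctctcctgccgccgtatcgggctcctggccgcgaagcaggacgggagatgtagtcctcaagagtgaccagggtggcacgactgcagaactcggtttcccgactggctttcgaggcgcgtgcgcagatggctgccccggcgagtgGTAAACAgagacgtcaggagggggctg

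Several starts are listed for FOXP1, FOXO3, FOXJ3 and FOXP2, and for these the window with the most CpG was counted. The CpG count then had a median of 39 (range 10 to 55, 15 genes) among the genes expressed in every group. It had a median of 16 (3 to 40, 7 genes) among genes that were low in at least 1 group and expressed in none, and of 14.5 (1 to 34, 14 genes) among genes silent in every group. Counted the same way, the 27305 genes of the table had a median of 16. Over genes with 1 listed start only, the medians were 35 (12 genes), 19 (6 genes) and 14.5 (14 genes) in these classes, and 12 over all genes. The classes overlapped: FOXB1 was expressed with 10 CpG, while FOXC1, FOXQ1 and FOXA1 had 40, 35 and 34 at very low levels, and FOXD2 and FOXE1 had 32 each and were silent. The silent class counts the FOXD4 group, a set of close copies, several times, which affects its median. FOXD4 has 16 CpG, FOXD4L1 3, FOXD4L3 11, FOXD4L4 12, FOXD4L5 2 and FOXD4L6 13. The other silent genes have 34 (FOXA1), 32 (FOXD2), 32 (FOXE1), 26 (FOXF2), 22 (FOXR1), 16 (FOXI1), 12 (FOXN1) and 1 (FOXR2). These counts are a description of the genes matched, with no test. The forkhead heptamer TGTTTAC, or GTAAACA on the other strand, lay in a window of FOXO4 and of FOXP1, and in a window of 4.19% of all genes. The GC box GGGCGG, searched on both strands, lay in at least 1 window of 27 of the 37 forkhead genes and of 48.3% of all genes. A match of letters is a description, not a binding site.

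**Figure D1:**
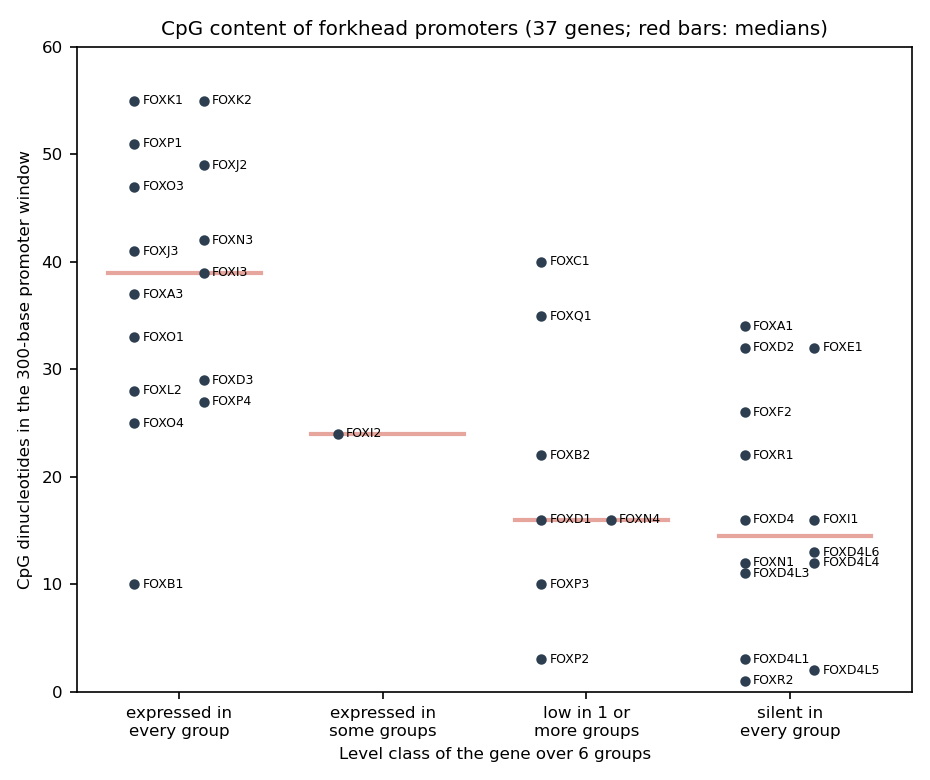
Number of CpG dinucleotides (vertical axis) in the 300-base promoter window of 37 forkhead genes (the window with the most CpG where several starts are listed), by level class (horizontal axis). Points are genes, and horizontal bars are class medians, at 39 for genes expressed in every group and 14.5 for genes silent in every group. The silent class includes several close copies of the FOXD4 group.

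By level, the family split into 3 parts. A gene was called expressed at a mean of at least 1 TPM in a group, low from 0.1 to under 1 TPM, and silent under 0.1 TPM. Expressed genes numbered 20 in each of Lanes 1 to 4 and 19 in both H1p43 and H1p16. Low genes numbered 6, 7, 7 and 8 in Lanes 1 to 4, 11 in H1p43 and 8 in H1p16, and silent genes 23, 22, 22, 21, 19 and 22. In all, 19 genes were expressed in every group, 1 (FOXI2) only in the LM-Seq groups, 12 were low in at least 1 group and expressed in none, and 17 were silent in every group. The nearest genes above the limit of 1 TPM were FOXL2 in Lanes 1 to 4, with means of 1.63, 1.8, 1.74 and 1.4 TPM, and FOXB1 in H1p43 and H1p16, with 1.55 and 1.37 TPM. Below it lay FOXP3, with 0.567 TPM in Lane 1, 0.467 TPM in H1p43 and 0.797 TPM in H1p16, so the limit fell in a gap of the distribution. No such gap existed at 0.1 TPM, where in H1p43 FOXP2 had 0.107 TPM and FOXL1 0.0867 TPM.

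The family as a whole summed to 432 ± 28.7 TPM in Lane 1, 431 ± 23 in Lane 2, 429 ± 24.6 in Lane 3 and 433 ± 9.89 in Lane 4 (SD over libraries), and to 451 ± 3.07 TPM in H1p43 and 523 ± 16.9 TPM in H1p16. The 5 highest genes made up 58.1%, 58.3%, 58.4% and 57.9% of that sum in Lanes 1 to 4, 65.3% in H1p43 and 62.2% in H1p16. FOXM1 and FOXH1 led in every group. Neighbours in the order of levels had separate ranges in 15 of 18 steps in H1p43, 12 of 18 in H1p16 and 5 of 19 in Lane 4, and in 0 of 19 in each of Lanes 1, 2 and 3. Below FOXM1 and FOXH1, the order in Lane 4 was FOXJ3, FOXN3, FOXO4 and FOXO1, each overlapping the next, followed by FOXK2, FOXO3 and FOXD3, which did not overlap each other.

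**Figure D2:**
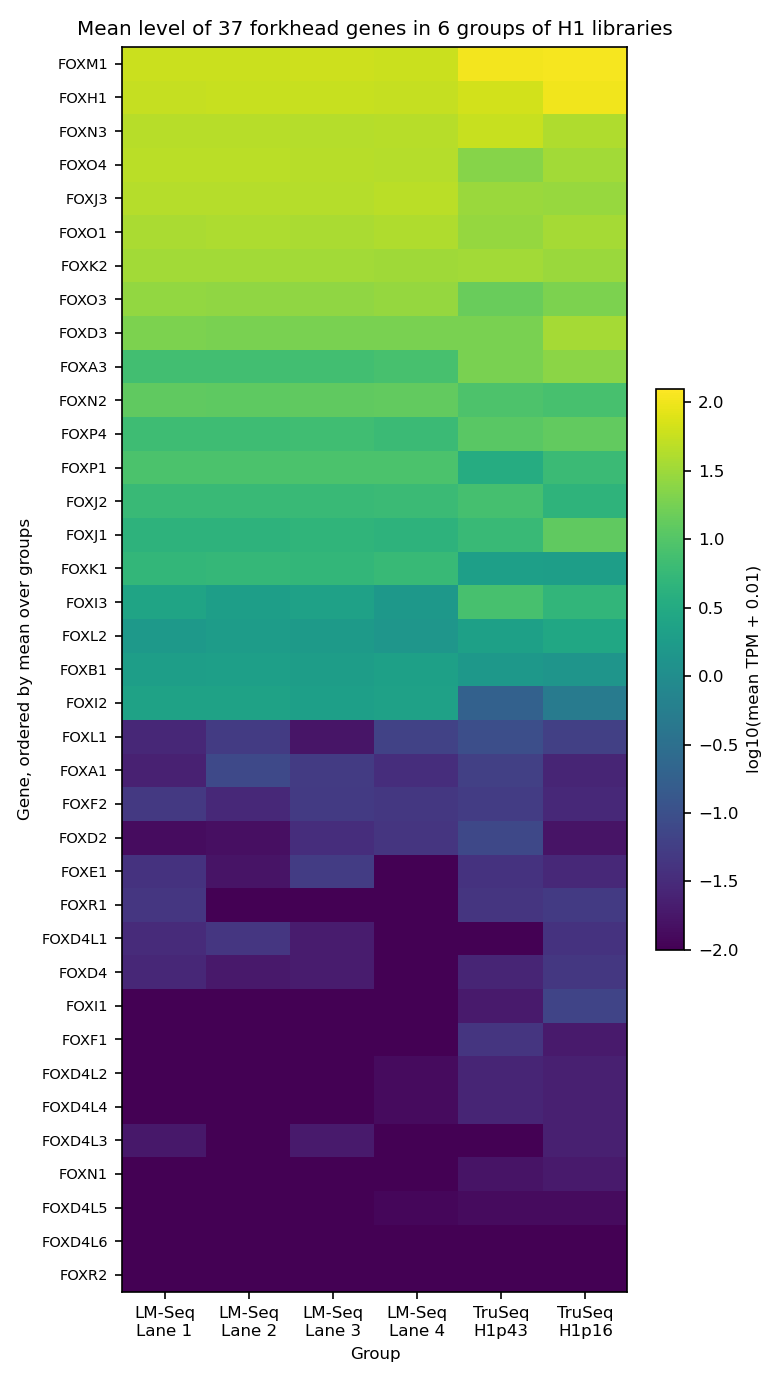
Mean level of the 37 forkhead genes that were expressed in at least 1 group or silent in every group (highest at the top) in the 6 groups (columns), as log10 of mean TPM plus 0.01 in colour. FOXM1 and FOXH1 head every column, FOXI2 is brighter in the 4 LM-Seq columns than in the TruSeq columns, and FOXR2 and FOXD4L6 are at 0 throughout.

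FOXM1, the driver of mitotic genes, had 63.8, 60.4, 60.7, 57.6, 57.01 and 55.2 TPM in the Lane 4 libraries, 111.2, 106.9 and 107.2 TPM in H1p43, and 113.8, 109.2 and 106.3 TPM in H1p16. FOXH1, the NODAL effector, had 62.2, 54.1, 47.9, 57.2, 54.7 and 50.6 TPM in Lane 4, 66.1, 65.7 and 65.4 TPM in H1p43, and 109.9, 105.1 and 97.1 TPM in H1p16. Both genes overlapped in Lane 4 and in H1p16, but in H1p43 the lowest FOXM1 library lay far above the highest FOXH1 library. Exons of FOXH1 overlap KIFC2 on the opposite strand in GENCODE v29, and whether strand entered the counting is not stated in any source at hand, so its level is uncertain.

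The FOXO genes, the branch that AKT controls, were all well expressed. FOXO1 averaged 40.5 ± 3.22 TPM in Lane 4, 28.1 ± 0.35 in H1p43 and 35.03 ± 1.06 in H1p16. FOXO4 averaged 44.7 ± 1.8 TPM in Lane 4, 22.3 ± 1.06 in H1p43 and 34.2 ± 0.25 in H1p16. FOXO3 averaged 28.3 ± 1.36 TPM in Lane 4, 14.7 ± 0.09 in H1p43 and 19.7 ± 0.15 in H1p16 (SD, n = 6, 3 and 3). Their sum was 113.4 ± 3.40 TPM in Lane 4, 65.1 ± 0.82 TPM in H1p43 and 88.9 ± 1.32 TPM in H1p16, and none of these groups overlapped another in any of the 3 genes.

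Further widely used members were expressed in every group. FOXK1 and FOXK2, which recruit SIN3 and BAP1 complexes, differed from each other in level: FOXK2 averaged 33.2 TPM in Lane 4, 34.1 TPM in H1p43 and 30.9 TPM in H1p16, and FOXK1 averaged 5.71, 2.08 and 2.0 TPM in these groups. FOXN3, a repressor linked to cell-cycle checkpoints, averaged 45.4 TPM in Lane 4, 56.02 TPM in H1p43 and 41.2 TPM in H1p16. FOXJ3 averaged 47.3, 30.4 and 29.8 TPM, and its relative FOXJ2 6.18, 7.79 and 4.65 TPM, in the same groups. FOXP1, known for an exon switch that occurs in human embryonic stem cells, averaged 8.55, 3.44 and 6.31 TPM, and FOXP4, which can pair with it, 6.21, 11.1 and 12.8 TPM. The tables are per gene, so FOXP1 isoforms could not be separated.

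FOXD3, a factor of the epiblast in mouse embryos and of the neural crest, averaged 19 ± 2.01 TPM in Lane 4, 19.1 ± 0.64 TPM in H1p43 and 35.2 ± 2.90 TPM in H1p16. Some genes better known from differentiated tissues were also above 1 TPM. FOXA3, a liver factor of the FOXA group, averaged 7.97 ± 0.97, 18.6 ± 0.70 and 24.6 ± 1.35 TPM in these groups, while its relative FOXA2 was at 0.418, 0.213 and 0.437 TPM and FOXA1 at 0.025, 0.05 and 0.0167 TPM. FOXJ1, the master regulator of motile cilia, averaged 4.49, 6.00 and 12.4 TPM. FOXI3, a factor of ectodermal placodes, averaged 1.52, 7.93 and 5.01 TPM, FOXL2, a factor of ovarian granulosa cells, 1.4, 2.09 and 2.72 TPM, and FOXB1, expressed in the embryonic brain, 2.12, 1.55 and 1.37 TPM.

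Among the 12 genes that stayed low were FOXA2, FOXC1, FOXD1, FOXE3, FOXP2, FOXP3 and FOXS1. Most rested on few counts. FOXC1, for example, had a count in 16 of 95 libraries of Lane 1, 13 of 48 in Lane 2, 7 of 24 in Lane 3 and 2 of 6 in Lane 4, and in all 3 libraries of both H1p43 and H1p16. FOXS1 had 18 counts over H1p43 and 3 over H1p16, and 0, 1, 1 and 0 over Lanes 1 to 4. Exons of FOXP3 overlap CCDC22 on the opposite strand, and those of FOXJ1, FOXD1, FOXK2, FOXP1, FOXP2, FOXN3 and FOXC2 overlap opposite-strand transcripts that have no row in the tables. Their counts are uncertain for the same reason as those of FOXH1.

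The 17 silent genes were FOXA1, FOXD2, FOXE1, FOXF1, FOXF2, FOXI1, FOXL1, FOXN1, FOXR1, FOXR2 and 7 genes of the FOXD4 group. FOXD4L6 and FOXR2 had 0 counts in every library of the 6 groups. The limit that a count of 0 allows, 3 counts over all libraries together, was 0.00481 CPM (counts scaled by the library totals). FOXF1, a factor of visceral mesoderm, FOXI1 and FOXN1, the thymic epithelial factor, were also at 0 in every LM-Seq library, and had 5, 5.12 and 2 counts over the TruSeq libraries. These limits cover counting error only. FOXC2, FOXF1 and FOXL1, neighbours on chromosome 16, were all low or silent, and so were FOXC1, FOXF2 and FOXQ1 on chromosome 6.

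The FOXD4 genes are near-identical copies, and RSEM divides reads between them by its model. In the 6 copies with a GENCODE v29 transcript, of the 50-base words of the transcript, 58.3% (FOXD4L1) to 97.5% (FOXD4L3) also occurred in another copy. FOXD4L2 and FOXD4L4 had identical values in every library, of which 5 had a value above 0, and all 7 copies together held 31 counts over 18 libraries. The level of the group is therefore near 0, while its division among copies is uncertain.

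H1p43 and H1p16 were compared within the TruSeq protocol. FOXJ1, FOXD3 and FOXP1 were each about 1 log2 unit lower in H1p43, FOXH1 and the FOXO genes were lower by less, and FOXJ2, FOXI3 and FOXN3 were higher. The largest difference was that of FOXI2, at −1.57 ± 0.30 (log2 fold change ± SE), on 7.11 to 12.2 counts per library in H1p43 and 19.2 to 23.2 in H1p16. Of the 49 genes, 23 passed the filter on low counts. In edgeR's quasi-likelihood test with Benjamini-Hochberg adjustment over all genes, 17 of these 23 were called at an adjusted p below 0.05, where 71.8% of all 14574 genes tested were called. Of the 23, 14 were lower in H1p43 (35.4% of all genes) and 3 were higher (36.4% of all genes), and the median log2 fold change was −0.31, against 0.01 over all genes. FOXI2 and FOXJ1 were called at least 2-fold lower (1.59% of all genes) and 0 forkhead genes at least 2-fold higher (5.69%). At an unadjusted p under 0.05, 17 forkhead genes and 73.8% of all genes differed. TPM values did not overlap between the groups for 16 of the 23, against 73.7% of all genes.

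**Figure D3:**
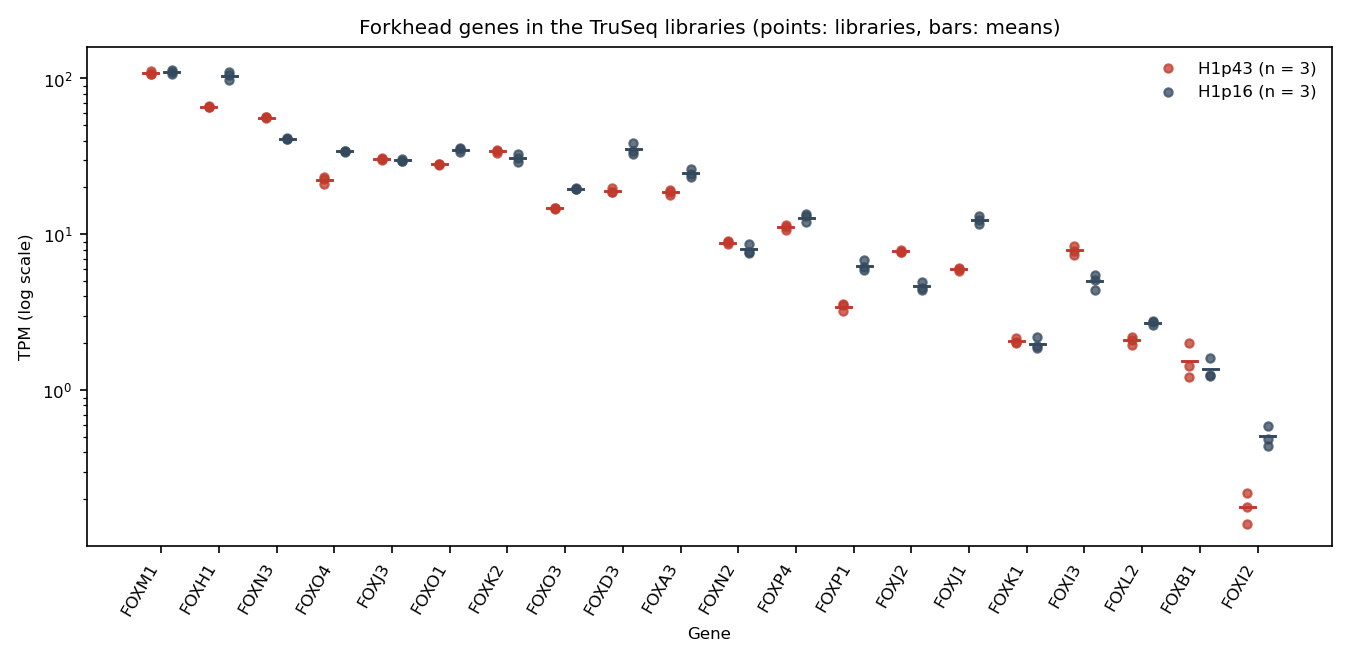
TPM (vertical axis, log scale) of the 20 forkhead genes whose mean reached 1 TPM in any of the 6 groups, in the 3 libraries of H1p43 (left of each pair) and the 3 of H1p16 (right). Points are libraries and bars are means. FOXH1, FOXD3, FOXJ1 and FOXI2 are lower in H1p43 without overlap, and FOXN3, FOXJ2 and FOXI3 are higher.

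FOXJ1 had 6.12, 5.87 and 6.01 TPM in H1p43, against 13.2, 12.4 and 11.7 TPM in H1p16. Every H1p43 library was below every H1p16 library, with a log2 fold change of −1.16 ± 0.07. FOXD3 had 19.8, 18.6 and 18.8 TPM in H1p43, against 38.4, 34.4 and 32.8 TPM in H1p16, a log2 fold change of −0.99 ± 0.06. FOXP1 had 3.23, 3.54 and 3.56 TPM in H1p43, against 6.84, 5.92 and 6.17 TPM in H1p16, a log2 fold change of −0.97 ± 0.07. Neither gene overlapped between the groups. The adjusted p in edgeR was 5.8e-11 for FOXJ1, 3.0e-11 for FOXD3 and 3.9e-10 for FOXP1.

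FOXH1 fell by 0.77 ± 0.04 on the log2 scale in H1p43 (edgeR adjusted p = 4.3e-12), with no overlap in the values given above. All 3 FOXO genes fell as well, FOXO4 by 0.72 ± 0.04, FOXO3 by 0.53 ± 0.03 and FOXO1 by 0.43 ± 0.03. FOXA3 fell by 0.52 ± 0.05, FOXL2 by 0.49 ± 0.12 and FOXP4 by 0.31 ± 0.05, each without overlap. FOXP3 fell by 0.88 ± 0.29, with 0.41, 0.41 and 0.58 TPM in H1p43, against 1.05, 0.80 and 0.54 TPM in H1p16, and its groups overlapped. Without H1p16 replicate 1 its edgeR adjusted p was 0.063.

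Among the higher genes, FOXJ2 had 7.72, 7.97 and 7.67 TPM in H1p43, against 4.97, 4.42 and 4.56 TPM in H1p16, a log2 fold change of 0.64 ± 0.06. FOXI3 had 7.42, 7.88 and 8.48 TPM in H1p43, against 5.10, 5.51 and 4.42 TPM in H1p16 (0.55 ± 0.12). FOXN3 had 56.4, 56.2 and 55.4 TPM in H1p43, against 40.9, 41.69 and 41 TPM in H1p16 (0.33 ± 0.02). None of the 3 overlapped, and the highest edgeR adjusted p of the 3 was 0.00046, that of FOXI3.

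The smallest calls depended on the scale. FOXM1 was at −0.13 ± 0.03 with edgeR, but at −0.02 and not called with limma on log2(TPM + 1), and its TPM values overlapped. FOXJ3 was at −0.08 ± 0.03 with edgeR and at 0.03, not called, with limma. Its edgeR call was lost when any H1p43 library or H1p16 replicate 2 was left out, with an adjusted p of up to 0.116. FOXK2 was at 0.03 ± 0.04, not called, with edgeR and was called at 0.14 with limma. FOXK1 (−0.04 ± 0.07), FOXN2 (0.04 ± 0.05), FOXB1 (0.07 ± 0.24), FOXD1 (−0.03 ± 0.31) and FOXN4 (0.60 ± 0.33) were not called by edgeR. On the TPM scale, limma called 4 forkhead genes higher and 10 lower of 19 tested. Over all genes the higher ones made up 50.7% of the calls of edgeR and 64.7% of those of limma.

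Marker levels differed between H1p43 and H1p16 too, where 36.4% of all genes tested were called higher in H1p43 and 35.4% lower. The summed level of the 11 pluripotency markers was 7174 to 7207 TPM in H1p43, against 8881 to 9091 TPM in H1p16, and 10 of the 11 were called lower. CD4, in a list of 4 blood and T cell markers, averaged 5.49 TPM in H1p43, against 2.2 TPM in H1p16, and IKZF1 1.05 TPM, against 0.737 TPM, both called higher, while PTPRC was at 0.030 and 0.073 TPM and CD3E at 0.057 and 0.123 TPM. Of the tested markers of other cell types, 3 of 3 for neural crest were called higher in H1p43 (median log2 fold change 0.63), with a summed level over the whole list of 9.52 to 10.3 TPM in H1p43, against 6.36 to 7.51 TPM in H1p16. For fibroblasts or stroma, 3 of 4 were higher and 1 lower (median 0.63), and the list summed to 109.4 to 114.4 TPM in H1p43, against 79.99 to 86.75 TPM in H1p16. For neuroectoderm, 3 of 4 were higher and 1, NES, was lower (median 0.36), and the list summed to 146.4 to 149.03 TPM in H1p43, against 160.9 to 165.5 TPM in H1p16. For primitive streak and mesoderm, 2 of 4 were higher and 2 lower (−0.30), and 2 of 4 ciliated cell markers (0.65) and 1 of 2 endoderm markers (0.93) were higher, with none lower. In bulk RNA, fewer cells of a type and less RNA per cell cannot be told apart, and the part of these markers in the forkhead differences was not tested.

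Partners, regulators and targets of the forkhead genes were read from the same fit, as counts with no test of the lists. Over all genes tested, 36.4% were called higher in H1p43 and 35.4% lower. With limma on log2(TPM + 1), 6327 of 13296 genes were called higher and 3457 lower. On the NODAL and SMAD side of FOXH1, 4 of 12 tested genes were higher and 6 lower in H1p43 (median −0.07), but 6 were higher and 4 lower with limma on log2(TPM + 1). The NODAL antagonists LEFTY1 and LEFTY2 rose, by 0.85 ± 0.08 and 0.95 ± 0.09. The ligand GDF3 fell by 1.42 ± 0.07, with 10.4 ± 0.27 TPM in H1p43 and 25.6 ± 0.52 TPM in H1p16, and the receptor ACVR2B fell by 0.37 ± 0.03. LEFTY1 and LEFTY2 are close paralogs, and the division of reads between them is uncertain.

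The AKT side of FOXO had 17 genes, of which 5 were higher in H1p43 and 10 lower (36.4% and 35.4% of all genes). Their median log2 fold change was −0.19. PDPK1, which encodes an activator of AKT, fell by 0.47 ± 0.04. YWHAG, a 14-3-3 protein gene, fell by 0.46 ± 0.02, and SIRT1, a deacetylase that acts on FOXO proteins, by 0.58 ± 0.04. Of 20 genes known as FOXO targets in other cells, 12 were higher and 4 lower, beside the same shares of all genes. Their median was 0.33, against 0.01 over all genes. GADD45B rose by 1.26 ± 0.10 and catalase, CAT, by 0.79 ± 0.06, whereas TXNIP fell by 1.60 ± 0.14 and TRIB1 by 0.64 ± 0.04. The FOXO genes themselves were lower in H1p43.

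Of 20 FOXM1 target genes of G2 and mitosis, 9 were higher and 6 lower in H1p43 (median 0.02). Over all genes the shares were 36.4% and 35.4%. With limma on log2(TPM + 1), 14 were higher and 2 lower, where 6327 of 13296 genes were higher and 3457 lower. CDC25B, a phosphatase that opens mitosis, rose by 0.79 ± 0.04, the centromeric histone gene CENPA by 0.71 ± 0.06 and the checkpoint kinase gene BUB1 by 0.33 ± 0.02, and CCNA2, cyclin A2, fell by 0.30 ± 0.02. Of 8 genes of the complexes that FOXK proteins recruit, 2 were higher and 3 lower, and on the TPM scale 4 were higher and 1 lower. OGT rose by 0.62 ± 0.03, SIN3B by 0.16 ± 0.03, HCFC1 fell by 0.59 ± 0.04 and SIN3A by 0.13 ± 0.02.

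Of 9 motile cilia genes known as FOXJ1 targets and tested, 4 were higher in H1p43 and 0 lower in edgeR's quasi-likelihood test. Over all genes the shares were 36.4% and 35.4%, and FOXJ1 itself was lower. Of the 12 listed cilia genes with values, 3 reached 1 TPM in H1p43 and 2 in H1p16. CCDC39 averaged 2.66 ± 0.20 TPM in H1p43 and 1.36 ± 0.27 TPM in H1p16, and CCDC40 averaged 3.35 ± 0.15 and 2.31 ± 0.13 TPM. DNAI1, a dynein of ciliary arms, averaged 0.373 ± 0.13 TPM in H1p43 and 0.110 ± 0.08 TPM in H1p16, and HYDIN 1.32 ± 0.05 and 0.840 ± 0.15 TPM.

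Lane 4 was compared with all 6 TruSeq libraries, as the LM-Seq lane nearest in depth. FOXI2 and FOXK1 were more than 2-fold higher in LM-Seq, FOXI3, FOXA3 and FOXJ1 more than 2-fold lower, and FOXM1 and FOXP4 nearly so. Of the 49 genes, 21 passed the filter. In edgeR's quasi-likelihood test 16 of them were called, against 71.3% of all 13827 genes tested. Of the 21, 8 were higher in Lane 4 (34.3% of all genes) and 8 lower (36.9% of all genes). Calls of at least 2-fold numbered 2 higher (9.02% of all genes) and 3 lower (15.1%), and 16 had an unadjusted p under 0.05 (73.2%). Values did not overlap for 14 of the 21, against 53.9% of all genes. The protocol, the depth and the cells that went into each set of libraries cannot be told apart.

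FOXI2 had 2.70, 3.31, 2.17, 2.22, 0.98 and 2.11 TPM in Lane 4, against 0.14, 0.18 and 0.22 TPM in H1p43 and 0.59, 0.49 and 0.44 TPM in H1p16. The lowest Lane 4 library was above every TruSeq library, with a log2 fold change of 2.76 ± 0.40 (edgeR adjusted p = 1.4e-05). FOXK1 had 4.56, 6.58, 5.94, 5.93, 4.45 and 6.78 TPM in Lane 4, against 2.17, 2.02 and 2.04 TPM in H1p43 and 2.2, 1.87 and 1.92 TPM in H1p16. Its log2 fold change was 1.52 ± 0.11 (edgeR adjusted p = 5.3e-09), and FOXK2, at 0.07 ± 0.05, was not called. The other higher genes were FOXP1 (0.84 ± 0.20), FOXO3 (0.75 ± 0.11), FOXO4 (0.68 ± 0.14), FOXJ3 (0.68 ± 0.05), FOXN2 (0.65 ± 0.08) and FOXO1 (0.39 ± 0.10), and Lane 4 lay above all 6 TruSeq libraries in each.

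FOXI3 had 2.04, 2.93, 0.50, 2.17, 0.49 and 0.97 TPM in Lane 4, against 7.42 to 8.48 TPM in H1p43 and 4.42 to 5.51 TPM in H1p16. Every Lane 4 library was below every TruSeq library, with a log2 fold change of −2.04 ± 0.37, on 4 to 24 counts per Lane 4 library. FOXA3 had 6.12, 7.89, 8.0, 8.57, 8.82 and 8.41 TPM in Lane 4, against 17.8, 18.7 and 19.2 TPM in H1p43 and 23.4, 24.4 and 26.1 TPM in H1p16 (−1.41 ± 0.14). Its Lane 4 and TruSeq values were far apart. FOXJ1 was at −1.02 ± 0.25, FOXP4 at −0.92 ± 0.12, FOXM1 at −0.84 ± 0.05, FOXL2 at −0.76 ± 0.27, FOXH1 at −0.62 ± 0.16 and FOXD3 at −0.49 ± 0.20. FOXL2 and FOXD3 overlapped between the protocols. FOXP3 (−0.94 ± 0.76), FOXN3 (−0.05 ± 0.08), FOXJ2 (0.04 ± 0.16) and FOXB1 (0.58 ± 0.31) were not called. FOXB1 was called by edgeR, at 0.73 with an adjusted p of 0.0309, when the Lane 4 library with its lowest level was left out.

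**Figure D4:**
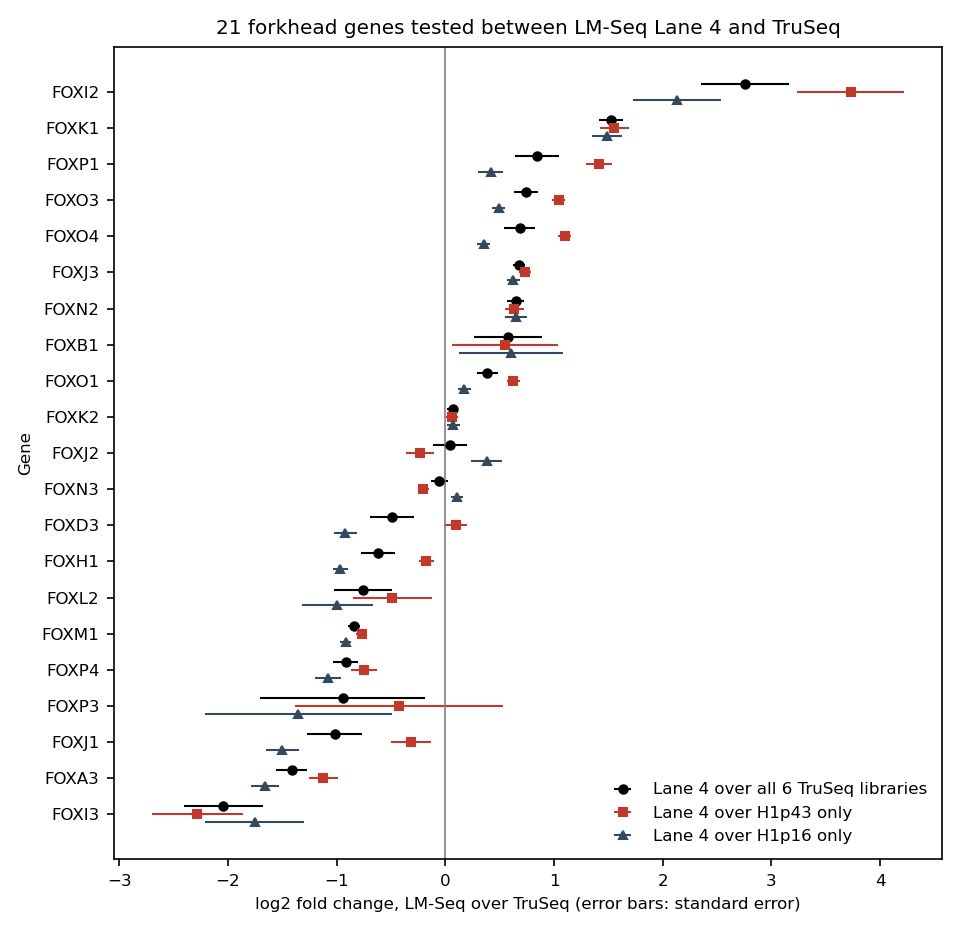
Log2 fold change of LM-Seq Lane 4 over TruSeq (horizontal axis) for the 21 forkhead genes tested (rows). Circles use all 6 TruSeq libraries, squares only H1p43 and triangles only H1p16, and error bars are standard errors. FOXK1, FOXJ3 and FOXN2 have nearly the same value against both TruSeq groups, while FOXD3, FOXH1 and FOXJ1 are at 0.10, −0.17 and −0.32 against H1p43 and at −0.92, −0.96 and −1.50 against H1p16.

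The choice of TruSeq group mattered for genes that differed between H1p43 and H1p16. FOXD3 was at 0.10 ± 0.11 against H1p43 alone, which edgeR did not call, and at −0.92 ± 0.10 against H1p16 alone. Its call over all 6 TruSeq libraries was lost when any H1p16 library, or any of 4 of the 6 Lane 4 libraries, was left out. FOXH1 was at −0.17 ± 0.07 against H1p43 and −0.96 ± 0.07 against H1p16. FOXJ1 was at −0.32 ± 0.19 and not called against H1p43, and at −1.50 ± 0.16 against H1p16. FOXL2 was likewise not called against H1p43 (−0.49 ± 0.36), and was called against H1p16 (−0.99 ± 0.33). FOXK1, by contrast, was at 1.56 ± 0.14 against H1p43 and 1.49 ± 0.14 against H1p16, FOXJ3 at 0.73 ± 0.06 and 0.63 ± 0.06, and FOXN2 at 0.64 ± 0.09 and 0.65 ± 0.10. Among genes called in the same direction against both, FOXI2 was at 3.73 ± 0.49 against H1p43 and 2.13 ± 0.41 against H1p16, FOXP1 at 1.41 ± 0.12 and 0.42 ± 0.12, FOXO4 at 1.10 ± 0.06 and 0.35 ± 0.06, FOXO3 at 1.04 ± 0.06 and 0.49 ± 0.06, and FOXO1 at 0.63 ± 0.06 and 0.18 ± 0.06. FOXN3 was called lower against H1p43 alone (−0.20 ± 0.05) and FOXJ2 higher against H1p16 alone (0.38 ± 0.14).

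The GC content of the transcripts, taken from GENCODE v29 on GRCh38, moved with the difference between protocols. Across the 21 forkhead genes tested, Pearson's r between GC content and the log2 fold change was −0.36 and Spearman's rho −0.48. Across 13765 of the 13827 genes tested the values were −0.54 and −0.57. Genes are not independent replicates and share libraries, so no p is given. In 4 bins of all genes with equal numbers, from the lowest to the highest GC content, the median log2 fold change was 0.48, 0.22, −0.25 and −0.81, and that of the forkhead genes in those bins 0.68 (3 genes), 0.39 (3), 0.05 (6) and −0.76 (9). FOXN2, with the lowest GC content of the 21 at 34.3%, was higher in LM-Seq and FOXJ1, with the highest at 65.96%, lower. FOXI2, at 61.7% GC, had the highest log2 fold change of the 21, and the part of GC content in the differences was not tested.

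The partner and target lists gave the following counts between Lane 4 and TruSeq. Over all genes tested, 34.3% were called higher in Lane 4 and 36.9% lower, with a median log2 fold change of −0.06. The list medians were 0.14 on the NODAL and SMAD side, 0.51 on the AKT side and −0.06 for FOXO targets. On the NODAL and SMAD side 5 of 12 genes were higher and 1 lower in Lane 4, with TDGF1, the NODAL co-receptor, at 1.03 ± 0.04, ACVR2B at 1.41 ± 0.08, SMAD2 at 0.85 ± 0.06 and SMAD4 at 0.73 ± 0.07. On the AKT side 11 of 17 were higher and 1 lower, with the receptor gene IGF1R at 1.13 ± 0.06, AKT1 at 0.50 ± 0.05 and the 14-3-3 genes YWHAZ and YWHAE at 1.10 ± 0.06 and 0.49 ± 0.04. FOXO targets split into 8 higher and 6 lower of 20, with SOD2 at 1.07 ± 0.07, CDKN1B at 0.95 ± 0.09, SESN2 at −1.53 ± 0.11 and CITED2 at −0.71 ± 0.09.

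FOXM1 targets split into 5 higher and 9 lower of 20 in Lane 4, where 34.3% of all genes were higher and 36.9% lower. CDC20 was at −1.34 ± 0.05 and CCNB2 at −0.71 ± 0.06, whereas CENPF was at 1.41 ± 0.06 and TOP2A at 0.42 ± 0.04. The FOXK complexes had 3 higher and 3 lower of 8, with SIN3A at 0.88 ± 0.06, HDAC2 at 0.69 ± 0.04, SIN3B at −0.57 ± 0.06 and BAP1 at −0.48 ± 0.05. Of 6 motile cilia genes tested, 2 were higher, RSPH4A at 1.08 ± 0.26 and CCDC39 at 0.99 ± 0.28. The pluripotency markers summed to 12143 to 12910 TPM in Lane 4, against 7174 to 7207 TPM in H1p43 and 8881 to 9091 TPM in H1p16, with L1TD1 at 2.09 ± 0.21 and POU5F1 at −0.54 ± 0.05. Their part in the forkhead differences was not tested.

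Across LM-Seq lanes the mean levels barely moved while the number of forkhead genes seen rose with depth. FOXM1 averaged 59.4 ± 7.84 TPM in Lane 1, 58.9 ± 5.59 in Lane 2, 60.5 ± 7.09 in Lane 3 and 59.1 ± 3.09 in Lane 4. FOXH1 averaged 55.1 ± 10.4, 56.6 ± 8.87, 56.2 ± 7.71 and 54.5 ± 5.02 TPM, and FOXO1 38.6 ± 5.51, 38.9 ± 4.52, 38.2 ± 4.66 and 40.5 ± 3.22 TPM in the same lanes. Over libraries with the same 5-digit number, edgeR called 0 of 15 forkhead genes tested between Lane 2 and Lane 1, 0 of 16 between Lane 3 and Lane 1 and 0 of 19 between Lane 4 and Lane 1, against 0.0%, 0.0% and 0.0161% of all genes. None had an unadjusted p under 0.05, against 1.8%, 1.99% and 1.25% of all genes, and DESeq2 and limma also called 0. The TPM values of no forkhead gene tested were apart between Lane 4 and Lane 1, against 0.0805% of all genes. With the library number as a replicate block in edgeR 0 forkhead genes were called, against 0.257%, 0.405% and 0.105% of all genes. In that fit 1 of 15, 0 of 16 and 2 of 19 forkhead genes tested had an unadjusted p under 0.05. The share of all genes under that limit was not computed, so these counts have no background beside them.

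Lane 1 libraries had a count (at least 1 after rounding) in 21.3 ± 1.4 of the 49 forkhead genes, Lane 2 in 22.9 ± 1.89, Lane 3 in 24.2 ± 1.95 and Lane 4 in 26.3 ± 2.80 (SD over libraries). H1p43 libraries had one in 39.7 ± 0.58 and H1p16 libraries in 36.7 ± 0.58. Compared by library number with Lane 1, Lane 2 showed 1.85 ± 1.84 more genes (more in 37 of 48 numbers) and Lane 3 showed 3.12 ± 1.48 more (more in 24 of 24). The adjusted p of the sign-flip permutation test was 1.5e-05 for both, from 1e-05, the smallest p that 100000 resamples can give. Lane 4 showed 5.67 ± 3.39 more genes, with a gain in 6 of 6 numbers. Its p in the exact sign-flip permutation test was 0.0312, the smallest that 6 numbers allow. Deeper lanes were bound to show more genes with a count, so these p-values are no evidence about the family itself. When every library was thinned to 1040667 counts, the gains were 0.104, 0.5 and 1 gene, with adjusted p = 0.738, 0.469 and 0.469 in the same permutation tests (two-sided, as above). Thinned in this way, H1p43 libraries had a count in 20.7 ± 1.15 forkhead genes and H1p16 libraries in 21.3 ± 1.53. Lane 1 libraries then had one in 20.9 ± 1.39 and Lane 4 libraries in 21.3 ± 0.82.

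**Figure D5:**
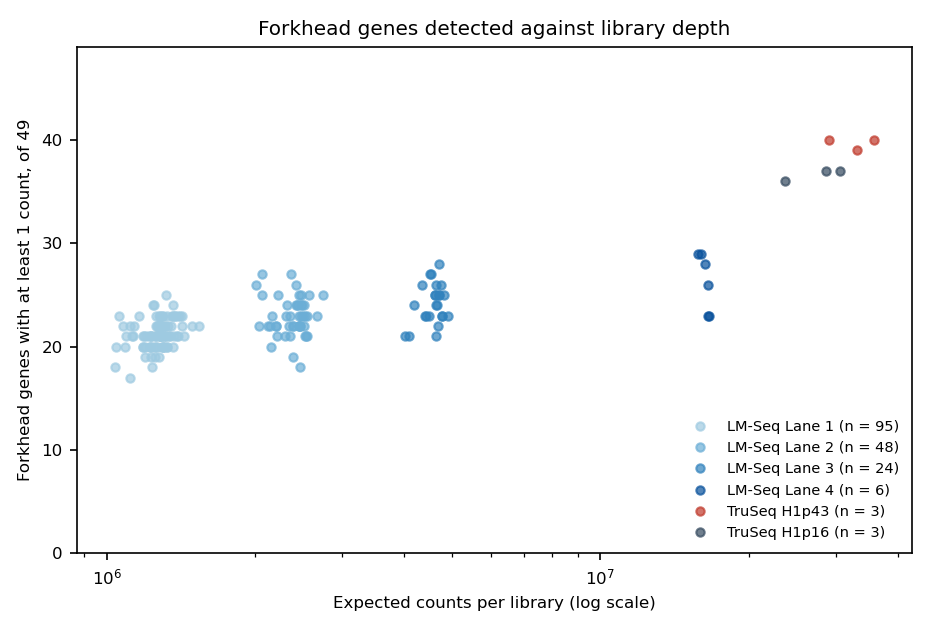
Number of forkhead genes with at least 1 count (vertical axis, of 49) against the expected counts of each library (horizontal axis, log scale), coloured by group. Lane 1 libraries lie between 17 and 25 genes, Lane 4 libraries between 23 and 29, H1p43 libraries between 39 and 40 and H1p16 libraries between 36 and 37.

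In Lane 1, 16 forkhead genes had a count in every library, 24 in some and 9 in none. The number seen in every library was 18 in Lane 2, 19 in Lane 3 and 21 in Lane 4. FOXJ1, at 4.38 ± 1.95 TPM, was still seen in all 95 libraries of Lane 1, with values from 0.68 to 8.73 TPM. FOXI2, FOXL2, FOXB1 and FOXI3 were missed in some, having a count in 85, 83, 74 and 70 of 95 libraries. FOXD1, at 0.385 TPM, had a count in 28.4% of Lane 1 libraries (95% Wilson interval 20.3 to 38.2%), 45.8% of Lane 2 (32.6 to 59.7%) and 70.8% of Lane 3 (50.8 to 85.1%), and in all 6 libraries of Lane 4. FOXP3 did not follow that order to the end, with a count in 40%, 52.1%, 58.3% and 50% of libraries in Lanes 1 to 4.

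The spread between libraries of 1 lane was in part repeated in another lane. For the 20 forkhead genes that reached 1 TPM on average, levels on the log2(TPM + 1) scale were correlated over the 48 library numbers that Lanes 1 and 2 share. p-values were adjusted over all 12588 genes with that mean level. FOXO1 gave Pearson's r = 0.70 and Spearman's rho = 0.60 (permutation p = 1e-05, the smallest that 100000 resamples can give, and 2e-05, adjusted 8.32e-05 and 0.000214), and r = 0.61 without the 2 numbers farthest from the Lane 1 median. FOXM1 gave r = 0.58 and rho = 0.55 (permutation p = 4e-05 and 9e-05, adjusted 0.000241 and 0.000658), and r = 0.49 without 2 numbers. FOXN3 followed with r = 0.55 and rho = 0.51, FOXI2 with 0.50 and 0.47, and FOXA3 with 0.48 and 0.42, all with an adjusted permutation p of at most 0.00854. In all, 13 of the 20 genes had an adjusted permutation p below 0.05 for r, against 66.1% of all genes, and 11 for rho, against 58.7%. The median r was 0.37 over the 20 genes and 0.38 over all genes, so the forkhead genes were close to the background.

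FOXO1 varied between 26.02 and 50.2 TPM over these Lane 1 libraries, with a median of 39.4 TPM. FOXN2 (r = 0.12, rho = 0.00), FOXB1 (r = 0.12, rho = 0.10) and FOXL2 (r = 0.14, rho = 0.09) were among the genes that did not pass, with permutation p = 0.399, 0.426 and 0.332 for r. The mean count per Lane 1 library was 34.6 for FOXN2 and 7.02 for FOXA3. On log2 CPM with TMM scaling, where p was adjusted over the 20 genes, 8 of the 20 passed for r. The share of all genes that passes on that scale was not computed. It is not known from the labels if equal numbers in different lanes are the same preparation.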

How the data were processed

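H1 embryonic stem cell RNA was sequenced with the TruSeq kit (6 libraries) and with LM-Seq (95, 48, 24 and 6 libraries in Lanes 1 to 4). The submitters' processing notes name RSEM 1.2.3, Bowtie 0.12.8, CASAVA 1.8.2 and the build hg19. The tables that the authors deposited give, for 19084 gene symbols, RSEM's expected counts. A second deposited table gives TPM, the abundance after scaling by transcript length and library size. No source at hand states if reads were counted by strand.

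Expected counts were rounded and tested over all genes with edgeR 4.0.16 in R 4.3.3 (quasi-likelihood test, filterByExpr, TMM, Benjamini-Hochberg adjustment, no covariates), and forkhead rows were read from those tables. Standard errors come from the fold changes and their F statistics. The procedure was tested on simulated data. Other settings were limma 3.58.1 on log2(TPM + 1) or log2(TPM + 0.1) of the deposited TPM, DESeq2 1.42.0, RLE scaling, all genes unfiltered, thinning to 1040667 counts, other lanes, single TruSeq groups, leaving out each library, and the replicate number as a block. A gene was named with values if it had at least 1 TPM in any group or was called in a comparison. Of each partner or target list, up to 4 called genes with the lowest adjusted p were named. The members, the lists and the thresholds were chosen with earlier results of these data known.

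Pairing was checked with the correlation of deviations from group means: for equal library numbers, r with Lane 1 lay between 0.18 and 0.69 for Lane 2, between 0.21 and 0.60 for Lane 3 and between 0.38 and 0.43 for Lane 4, so the library number pairs them. Within groups, counts of any 2 libraries differed beyond sampling noise (chi-square divided by its degrees of freedom at least 1.29), so none were merged. Between Lane 1 and the same number in Lanes 2 to 4 it was 1.04 to 1.20. Intervals and limits from counts cover counting error only. Some genes that the naming rule covers are not reported here.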

Additional observations from a re-analysis of the deposited data

Results flagged for a closer look

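FOXA3 in Lane 4 had 1 library far below the others: 6.12 TPM, where the other 5 libraries had 7.89 to 8.82 TPM. The gap was 0.656 of the whole range, above Dixon's critical value of 0.625 for 6 values. Of 21 forkhead genes examined in Lane 4, only FOXA3 was marked in this way, and chance marks about 1 group in 20. The library with the same number had 7.93 TPM in Lane 1, 7.86 TPM in Lane 2 and 6.33 TPM in Lane 3, on 8, 16 and 24 counts, and this one had 80 counts. It lay below every TruSeq library, as the other 5 did.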

How the results depend on the processing

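Between H1p43 and H1p16, 6 of 46 forkhead genes tested were called higher with no filter on low counts, in place of 3 of 23. With limma over genes above 0 TPM, 6 of 47 were. Over all genes, 5399 of 17536 were called higher with no filter and 6867 of 17556 with that limma fit, in place of 5305 of 14574. FOXJ3, lower with edgeR, was at 0.026 with limma on log2(TPM + 1), with either filter, and at 0.027 on log2(TPM + 0.1), and was not called. Leaving out 1 library gave 3 to 4 higher and 13 to 15 lower. The numbers do not pair the TruSeq samples (r between −0.03 and 0.04), and with the replicate block 3 were higher and 14 lower. Between Lane 4 and TruSeq, leaving out 1 library gave 8 to 9 higher and 7 to 8 lower, and FOXD3 was at 0.10 with H1p43 libraries only. With the replicate block, 0 forkhead genes were called between Lanes 2, 3 and 4 and Lane 1, against 0.257%, 0.405% and 0.105% of all genes. Thinning cut the gain in detected genes to 0.104, 0.5 and 1 for Lanes 2, 3 and 4. Repeatability passed for 8 genes on log2 CPM and for 13 on log2(TPM + 1), adjusted over the 20 genes, and for 13 adjusted over all genes, an adjustment chosen after seeing the data. On log2(TPM + 1) 66.1% of all genes passed, and no such share was computed on log2 CPM. With 5 TPM as the limit of expressed, low genes numbered 11, 12, 12 and 13 in Lanes 1 to 4, and with 0.05 TPM as the limit of silent, 11 in Lane 2. Of the values recomputed for single genes, 724 kept direction and call, 20 lost the call, 9 gained it and 4 reversed. For these changes the cause was not tested.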
